A study of Rattus norvegicus with 20 samples.

Results

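Neural stem cells kept under constant Wnt stimulation for 3 d were compared with cells kept under it for 1 d. The comparison rests on 6 of the 20 libraries of the study, 3 at 3 d ON and 3 at 1 d ON. They were chosen by the treatment profile in the labels and paired by inducer, so that each pair holds the 3 d and the 1 d library of the same inducer. All 6 came from cultured adult hippocampal neural stem cells of Fisher 344 rats that carried optoWnt. This construct was introduced by transduction followed by puromycin selection, per the labels, and the sources used here do not give the promoter that drives it. The first pair received CHIR99021, a small-molecule inhibitor of the kinase GSK-3. The second pair received the ligand Wnt3a at 100 ng/mL, and the third was illuminated by LED arrays, which act through optoWnt itself. All cells were in a basal medium with little serum. Unstimulated wild-type and optoWnt cells of 0, 3 and 5 d, with 1 library of each genotype per day, were used to see which changes also took place without an inducer. The titles of the unstimulated 3 and 5 d libraries also carry the word ON, and the sources used here do not say whether light reached them.

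In canonical Wnt signalling, a Wnt ligand binds Frizzled receptors and the co-receptor LRP6, which halts the destruction complex in which GSK-3 marks β-catenin for degradation. β-catenin then accumulates, enters the nucleus and acts with TCF/LEF factors on target genes. In the adult hippocampus this pathway is known for promoting neuronal differentiation of neural stem cells and for supporting their proliferation. Stem cells moved out of growth factor medium also differentiate over days without an added Wnt signal, so elapsed time and duration of stimulation run together in any comparison of 3 d with 1 d.

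Genes are given by Ensembl ID, because no symbols are paired with them in the files at hand. No gene can therefore be tied to a role, the identity of the cells could not be checked against marker genes, and lists of Wnt targets or differentiation genes were not analysed here. At 3 d ON the CHIR99021 library held 4417181 reads, the Wnt3a library 4969526 and the light library 2421160, and at 1 d ON the same inducers had 5125320, 696463 and 1836461 reads. Where a gene has 0 reads, its level may still reach 4.21 CPM (a gene's reads relative to the TMM-scaled library total) in the shallow Wnt3a library of 1 d, the level of 3 reads, and 0.551 to 1.56 CPM in the other 5. These limits cover counting error only. On the first principal component of all 20 libraries, which held 29.4% of the variance, the light library of 3 d ON scored -41.5 and stood apart from the other 5, which scored 21.4 to 38.7. The unstimulated wild-type libraries of 0 and 5 d also had low scores, of -68.2 and -76.2. So did Wnt3a at 5 d ON (-109.8) and, after 1 d ON and 2 d without the inducer, Wnt3a (-68.7) and CHIR99021 (-43.9).

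Few genes passed the test between 3 d and 1 d of constant stimulation. Of the 12190 genes tested, 3 rose at 3 d relative to 1 d ON, which is 0.0246%, and 0 fell, 0% (3 libraries against 3, edgeR's quasi-likelihood test, adjusted p under 0.05, here referred to as called). At an unadjusted p under 0.05, 1315 genes (10.8%) differed, 778 higher and 537 lower. DESeq2 on the same design called 200 higher and 62 lower, among them all 3 of the genes called by edgeR. The spread was estimated from all 20 libraries in 1 model with 9 residual degrees of freedom. The 3 libraries at 3 d ON, and those at 1 d ON, each had a different inducer. The labels do not say whether the libraries came from separate cultures, so the p-values measure the spread between the libraries of the study only. In bulk RNA, fewer cells of a type and less RNA per cell cannot be told apart.

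ENSRNOG00000005392 stood at 546.0 CPM under CHIR99021, 51.1 under Wnt3a and 38.4 under light at 3 d ON, against 22.1, 5.61 and 4.17 CPM under the same inducers at 1 d ON. All 3 libraries of 3 d lay above all 3 of 1 d, and the CHIR99021 library was the highest at either time. The level was 24.7-fold higher at 3 d with CHIR99021, 9.11-fold with Wnt3a and 9.21-fold with light, where the Wnt3a value of 1 d rests on 4 reads. The fitted log2 fold change over the 3 inducers was 3.81, with a standard error of 0.57 (edgeR adjusted p = 0.042).

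The same transcript also rose with time where no inducer was given. Unstimulated wild-type cells had 1.45, 35.01 and 305.0 CPM at 0, 3 and 5 d, and unstimulated optoWnt cells 3.69, 9.06 and 68.4 CPM. The log2 fold change of 5 d against 0 d without a stimulus was 5.54 (edgeR adjusted p = 0.00074) and that of 3 d against 0 d was 2.50, which was not called (edgeR adjusted p = 0.079). In cells given the stimulus for 1 d and then deprived of it for 2 d, it stood at 182.5 CPM with CHIR99021. With Wnt3a it stood at 40.6 and with light at 13.9 CPM, so the order of the inducers was that of 3 d ON. The CHIR99021 and Wnt3a libraries of this profile had low scores on the first component.

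ENSRNOG00000007367 was a rare transcript with close values across inducers. It had 16.1, 14.0 and 16.8 CPM under CHIR99021, Wnt3a and light at 3 d ON, against 1.34, 1.40 and 2.08 CPM at 1 d ON. The groups averaged 15.6 ± 1.48 and 1.61 ± 0.414 CPM (SD, n = 3 each) and did not overlap. The 1 d values rest on 7, 1 and 4 reads, so the fold differences of the pairs, 12.1, 9.96 and 8.06, are loosely determined. The fitted log2 fold change was 3.26 with a standard error of 0.51 (edgeR adjusted p = 0.049). Without a stimulus the wild-type cells had 2.89, 15.0 and 62.6 CPM at 0, 3 and 5 d and the optoWnt cells 0.852, 8.38 and 34.0 CPM. That rise was called both at 3 d (log2 fold change 2.75, edgeR adjusted p = 0.023) and at 5 d (4.79, edgeR adjusted p = 0.00064).

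The third called gene, given without its ID, was more abundant. It stood at 275.8, 225.7 and 144.8 CPM under CHIR99021, Wnt3a and light at 3 d ON, against 38.9, 54.7 and 33.9 CPM at 1 d ON, and again the groups did not overlap. The log2 fold change was 2.30 with a standard error of 0.33 (edgeR adjusted p = 0.042). Its unstimulated rise by 5 d was called too, with a log2 fold change of 2.36 (edgeR adjusted p = 0.0051). At 3 d against 0 d without a stimulus the value was 1.54 and was not called (edgeR adjusted p = 0.063).

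For none of the 3 was the change under stimulation called as different from the unstimulated change of 3 d against 0 d. The tested differences were 1.31 with a standard error of 0.89 for ENSRNOG00000005392 (edgeR adjusted p = 0.7) and 0.51 with a standard error of 0.79 for ENSRNOG00000007367 (edgeR adjusted p = 0.86). All 3 calls were lost when any of the 6 libraries was left out, with smallest adjusted p values from 0.056 without Wnt3a 3 d ON to 0.31 without Wnt3a 1 d ON (edgeR).

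**Figure D1:**
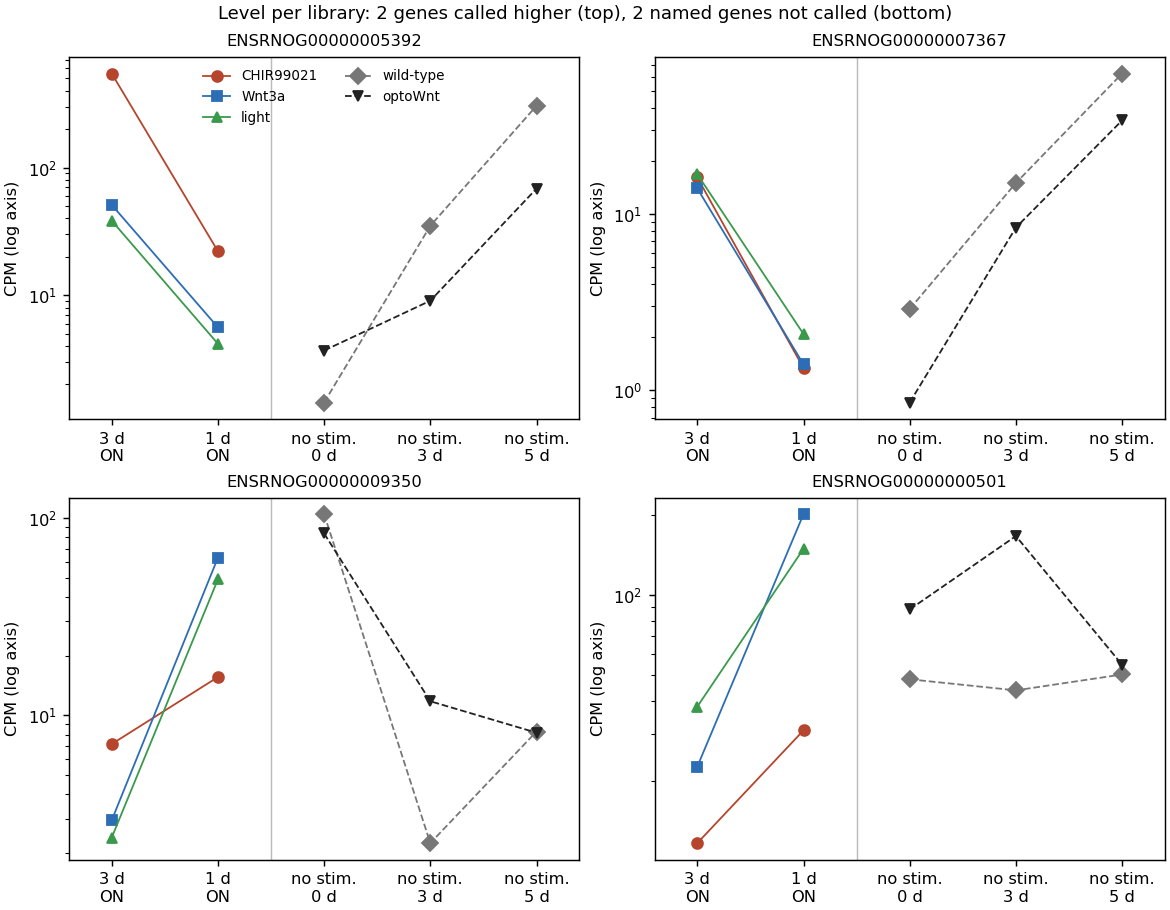
Levels in CPM (log axis) of 4 genes in each library, with 3 d ON left of 1 d ON, joined by inducer, and unstimulated wild-type and optoWnt cells at 0, 3 and 5 d at the right. The 2 upper genes rose at 3 d relative to 1 d ON and also stood highest at 5 d among the unstimulated libraries. The 2 lower genes were not called, and ENSRNOG00000009350 had 83.8 CPM or more at 0 d and 11.8 CPM or less at 3 d without a stimulus.

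No gene was called lower, so the largest decreases are given as values. ENSRNOG00000009350 had 7.16, 2.94 and 2.40 CPM under CHIR99021, Wnt3a and light at 3 d ON, against 15.7, 63.1 and 49.0 CPM at 1 d ON. The groups did not overlap, and the CHIR99021 pair, with the lowest level of the 3 at 1 d, differed least. The log2 fold change was -3.40 with a standard error of 0.72 (edgeR adjusted p = 0.11), and DESeq2 called it (adjusted p = 0.00025). Without a stimulus this transcript had 105.0 CPM in wild-type and 83.8 in optoWnt cells at 0 d, 2.25 and 11.8 at 3 d, and 8.28 and 8.17 at 5 d. Those falls were called, with log2 fold changes of -3.92 at 3 d (edgeR adjusted p = 0.028) and -3.57 at 5 d (edgeR adjusted p = 0.026).

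ENSRNOG00000000501 had 11.6, 22.6 and 38.0 CPM under CHIR99021, Wnt3a and light at 3 d ON, against 30.9, 201.9 and 149.5 CPM at 1 d ON. Each pair was lower at 3 d, but the groups overlapped, since light at 3 d stood above CHIR99021 at 1 d. The log2 fold change was -2.47 with a standard error of 0.62 (edgeR adjusted p = 0.15, DESeq2 adjusted p = 0.0057). Without a stimulus the log2 differences were small and not called, at 0.47 for 3 d against 0 d (edgeR adjusted p = 0.8) and -0.27 for 5 d against 0 d (edgeR adjusted p = 0.88). The optoWnt library of 3 d, at 166.9 CPM, was the highest of the 6 unstimulated ones, which otherwise ran from 43.8 to 88.3 CPM. The difference between the stimulated and the unstimulated change was -2.94 and was not called (edgeR adjusted p = 0.27).

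The 3 inducers were then compared within their own pairs. Included were the 8216 genes that averaged 10 CPM or more over the 6 libraries, as log2 CPM of 3 d minus 1 d with a prior count of 2. More than 2-fold differences in either direction were found in 19.4% of genes with CHIR99021, 22.8% with Wnt3a and 26.6% with light. Higher and lower genes were about equal in number with CHIR99021, 785 and 807. Wnt3a had more that were higher, 1071 against 802, and light more that were lower, 1369 against 816 that were higher. Each pair is 1 library against 1, so these shares carry no error of their own. The Wnt3a pair contains the shallowest library and the light pair the library that stood apart, and their part in the shares was not tested.

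The gene-by-gene differences of CHIR99021 and Wnt3a were closer to each other than to those of light. Across the 8216 genes, which are not independent and share the depth of each library, Pearson's r of the 3 d minus 1 d differences was 0.52 between CHIR99021 and Wnt3a, 0.15 between CHIR99021 and light and 0.21 between Wnt3a and light. Genes more than 2-fold higher in 1 pair and more than 2-fold lower in the other numbered 58 for CHIR99021 against Wnt3a, 198 for CHIR99021 against light and 173 for Wnt3a against light. These r values are a description. Those with light include its 3 d ON library, which stood apart on the first component. The part of that library in them was not tested. In the test of the difference itself, an interaction of inducer with duration, edgeR called 0 of 12190 genes (0%, smallest adjusted p 1, 223 genes or 1.83% at an unadjusted p under 0.05), and DESeq2 called 0. With 1 library per inducer and time, the test had 7 residual degrees of freedom from the whole study, and it does not show that the inducers acted alike.

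**Figure D2:**
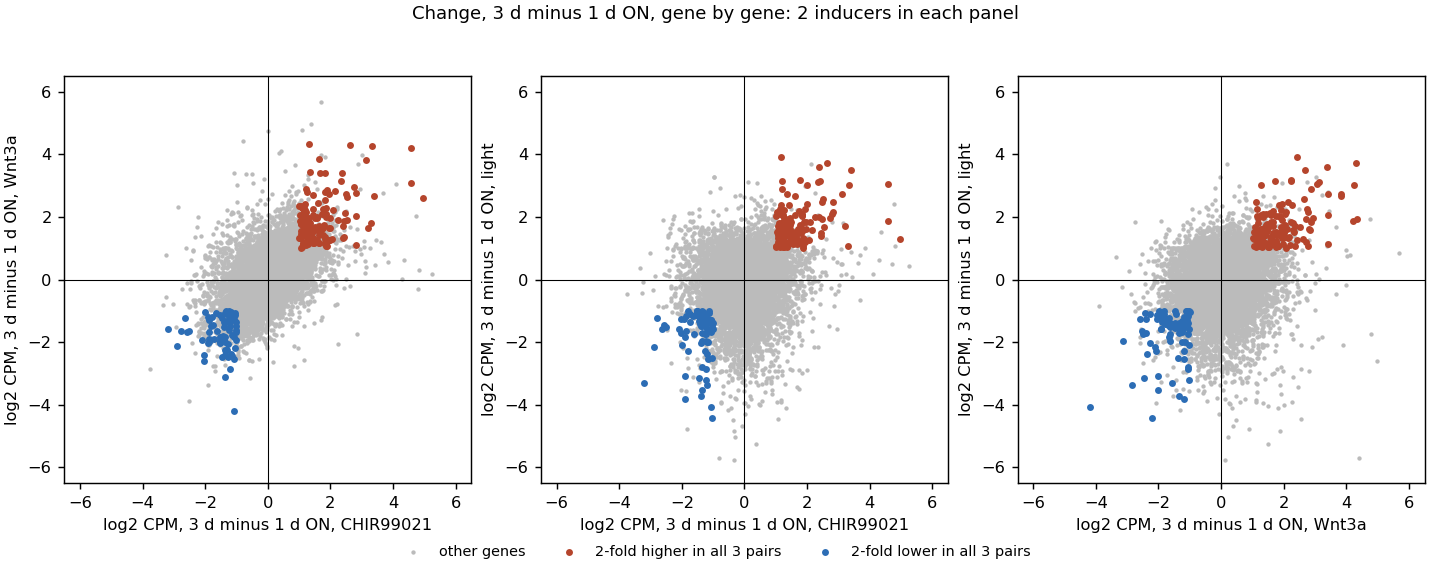
Change of each of 8216 genes between 3 d and 1 d ON (log2 CPM, 3 d minus 1 d) under 1 inducer against another, with the 134 genes more than 2-fold higher in all 3 pairs in red and the 77 more than 2-fold lower in blue. The cloud is elongated along the diagonal for CHIR99021 against Wnt3a (r = 0.52) and nearly round or stretched along the light axis in the panels with light (r = 0.15 and 0.21).

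Genes that moved with every inducer formed a small common set. Of the 8216, 134 (1.63%) were more than 2-fold higher at 3 d in all 3 pairs and 77 (0.937%) more than 2-fold lower. The median log2 differences of the 134 were 1.5 with CHIR99021, 1.76 with Wnt3a and 1.6 with light, and those of the 77 were -1.36, -1.63 and -1.53. The largest of the 3 changes was that of CHIR99021 in 36, Wnt3a in 59 and light in 39 of the 134 genes. In the 77 these numbers were 17, 27 and 33. Over all 8216 genes, the most positive of the 3 differences was that of CHIR99021 in 2492, Wnt3a in 2783 and light in 2941. The most negative was theirs in 2504, 2233 and 3479 genes, so light also led most often among all genes. Of the 134, 129 had an unadjusted p under 0.05 (edgeR), against 1102 of all 8216, but 2 were called. The set was chosen by the same differences that this test measures, so the 129 are no separate support for it. ENSRNOG00000007367, with a lower mean, is not among the 8216. Without the light pair, 367 genes were more than 2-fold higher and 287 more than 2-fold lower in both of the other pairs. With all 6 libraries thinned to 696463 reads, 132 and 77 genes met the same rule, of which 100 and 47 were the same genes as before thinning.

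The common set was next looked up in the unstimulated libraries, none of which entered its choice. Genes higher at 3 d ON were often higher with time without a stimulus as well. Of the 134, 40 (29.9%) had a mean difference above 2-fold in the same direction between 3 d and 0 d, against 13.4% of all 8216 genes, and 60 (44.8%) between 5 d and 0 d, against 13.8%. At 5 d, 44 of the 134 (32.8%) were above 2-fold in both genotypes, compared with 7.69% of all 8216. The opposite direction was seen in 5 genes (3.73%) at either day, against 7.45% of all genes at 3 d and 13.2% at 5 d. Their median log2 difference without a stimulus was 0.48 at 3 d and 0.80 at 5 d, against 0.07 and 0.01 over all 8216. A further 64 of the 134 (47.8%) stayed within 2-fold of 0 d at both times, against 66.6% of all genes. These were picked by a cutoff on a mean of 2 libraries, so smaller unstimulated changes are not excluded, and no library of 1 d was among them. In edgeR's test of the difference from the unstimulated change of 3 d against 0 d, 3 of the 134 (2.24%) were called, against 0.828% of all 8216. The change under stimulation that chose the 134 is part of this difference, so the share is no separate support for the set.

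Genes lower at 3 d ON were also often lower by 5 d without a stimulus. Of the 77, 43 (55.8%) were more than 2-fold lower at 5 d relative to 0 d, against 13.2% of all genes, and 4 were more than 2-fold higher. At 3 d against 0 d the same counts were 13 (16.9%, against 7.45%) and 11 (14.3%, against 13.4%). Their medians were -1.11 at 5 d and -0.26 at 3 d. These figures use wild-type libraries with low scores on the first component. In the optoWnt libraries alone, 23 of the 77 (29.9%, against 7.91%) were more than 2-fold lower at 5 d, and 53 of the 134 (39.6%, against 11.3%) more than 2-fold higher. For the genes that moved with both CHIR99021 and Wnt3a, light left aside, the optoWnt shares at 5 d were 36.8% of 367 higher genes and 24.7% of 287 lower ones.

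**Figure D3:**
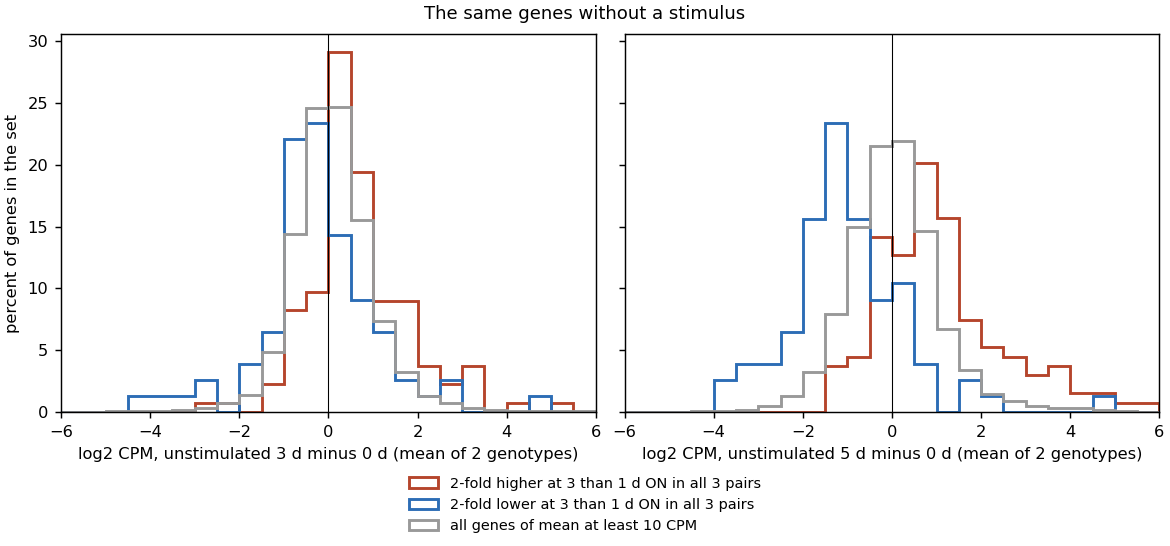
Distribution of the unstimulated change (log2 CPM, 3 d minus 0 d at left and 5 d minus 0 d at right, mean of the wild-type and optoWnt libraries) for the 134 genes higher and the 77 genes lower at 3 d than at 1 d ON in all 3 pairs, and for all 8216 genes. The genes are shown as percent of each set per bin, and the distributions overlap. The medians of the sets lie on opposite sides of that of all genes, at 0.48 and -0.26 against 0.07 for 3 d. For 5 d they are 0.80 and -1.11 against 0.01.

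The question was also asked from the other side, starting from genes that changed without a stimulus. At 3 d against 0 d, 159 genes rose (1.3% of 12190) and 93 fell (0.763%), and at 5 d against 0 d, 368 rose (3.02%) and 183 fell (1.5%), by edgeR with 2 libraries against 2. At an unadjusted p under 0.05 the shares of genes were 13.6% at 3 d and 19.9% at 5 d. Both comparisons use the same 0 d libraries. Both lists shrank when any 1 of their libraries was left out, which leaves 1 library in its group. When wild-type 0 d was dropped, the 252 calls at 3 d shrank to 17, and dropping wild-type 3 d, optoWnt 0 d or optoWnt 3 d left 43, 46 or 75. At 5 d, dropping wild-type 0 d or wild-type 5 d took the 551 calls to 32 or 67, and dropping optoWnt 0 d or optoWnt 5 d to 307 or 425. Between 5 d and 3 d edgeR called 0 genes (0% in either direction, smallest adjusted p 0.99, 336 genes or 2.76% at an unadjusted p under 0.05), and DESeq2 called 4. The 3 genes called at 3 d against 1 d ON were all among the 368, and 1 of them was among the 159.

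Of the 368 genes that rose by 5 d without a stimulus, 284 (77.2%) had a positive estimate at 3 d against 1 d ON, where 50.6% of all genes did. An unadjusted p under 0.05 in that direction was reached by 114 of them (31.0%, against 6.38% of all genes) and in the other direction by 5. Their median log2 differences in the pairs were 0.51 with CHIR99021, 0.64 with Wnt3a and 0.34 with light. More than 2-fold higher in all 3 pairs were 34 of the 368 (9.24%, against 1.75% of all genes tested). Of the 183 that fell by 5 d, 150 (82.0%, against 49.4%) had a negative estimate at 3 d against 1 d ON, 40 (21.9%, against 4.4%) with an unadjusted p under 0.05. Their medians were -0.68 with CHIR99021, -0.53 with Wnt3a and -0.22 with light. In the shorter lists called with 1 unstimulated library left out, the share with the same sign at 3 d against 1 d ON ran from 77.5% to 85.7% of the risers by 5 d and from 71.0% to 91.7% of the fallers. DESeq2 called 200 genes higher at 3 d ON, with an adjusted p available for 10299 genes. Of these 200, 47 (23.5%, against 3.02% of all 12190 genes) were among the 368 and 0 among the 183. DESeq2 called 62 lower, of which 6 (9.68%, against 1.5%) were among the 183 and 0 among the 368.

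Genes that changed by 3 d without a stimulus had medians in the CHIR99021 pair near that of all 12190 genes, which was -0.03 with CHIR99021, 0.09 with Wnt3a and 0 with light. The 159 risers had median log2 differences of 0.11 with CHIR99021, 0.52 with Wnt3a and 0.37 with light, and 111 of them (69.8%) had a positive estimate over the inducers. Of the 159, 43 (27.0%, against 6.38% of all genes) were higher at 3 d ON with an unadjusted p under 0.05 and 7 (4.4%, against 4.4%) were lower. The 93 fallers had medians of -0.04, -0.42 and -0.17, and 62 of them (66.7%) had a negative estimate. Of these fallers, 16 (17.2%, against 4.4%) were lower at 3 d ON with an unadjusted p under 0.05 and 9 (9.68%, against 6.38%) were higher. With 1 unstimulated library left out, the lists at 3 d held 8 to 56 risers and 8 to 19 fallers, of which 62.5% to 85.2% and 77.8% to 87.5% had the same sign at 3 d against 1 d ON. Whether the inducers differ over these lists was not tested.

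**Figure D4:**
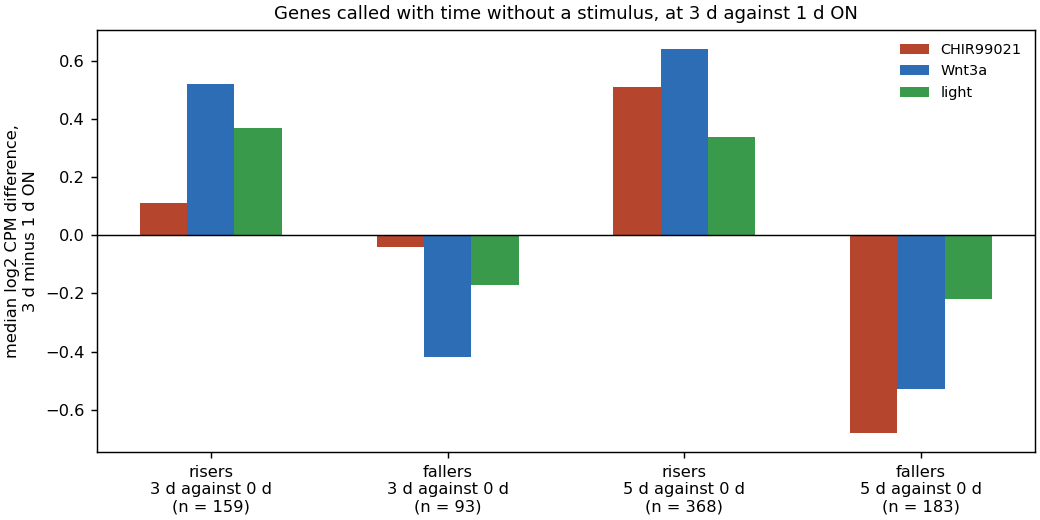
Median change between 3 d and 1 d ON (log2 CPM, 3 d minus 1 d, 1 bar per inducer, no error since each pair is 1 library against 1) of genes called higher or lower with time without a stimulus. The CHIR99021 medians for genes called at 3 d against 0 d, 0.11 and -0.04, are the nearest to 0, and the second is close to the median of -0.03 over all 12190 genes in that pair.

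Finally, the change over stimulation was tested against the unstimulated change of 3 d against 0 d in the same model. The intervals are unequal, 2 d under stimulation and 3 d without. The difference was called for 72 of 12190 genes (edgeR adjusted p under 0.05), while 1127 genes (9.25%) had an unadjusted p under 0.05. It was positive, with the change under stimulation above the unstimulated one, in 31 genes (0.254%) and negative in 41 (0.336%). Measured as the mean difference in log2 CPM, all 31 were more than 2-fold lower at 3 d than 0 d without a stimulus, with a median of -2.96, and all 41 more than 2-fold higher, with a median of 3.56. In 50 of the 72 the change between 3 d and 1 d ON stayed within 2-fold. Only 11 of the 31 and 10 of the 41 moved more than 2-fold in the direction of the difference between 3 d and 1 d ON, and 3 and 4 of them did so in all 3 pairs.

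The genes named for this difference were chosen after their values were seen, as the largest with at least 10 reads in each of the 4 groups and an average of 10 CPM or more. ENSRNOG00000001785 had 10.7, 13.2 and 48.4 CPM under CHIR99021, Wnt3a and light at 3 d ON, against 4.96, 22.4 and 30.7 CPM at 1 d ON. Without a stimulus it had 19.0 CPM in wild-type and 25.8 in optoWnt cells at 3 d, against 996.5 and 811.8 CPM at 0 d. It was therefore low in every library of 1 or 3 d, stimulated or not, and the 0 d level is the one that stood apart. The difference was 5.67 (SE 0.85, edgeR adjusted p = 0.0081). In the opposite direction, ENSRNOG00000007882 had 8.50, 58.4 and 92.8 CPM at 3 d ON under these inducers, against 11.8, 65.9 and 53.1 CPM at 1 d ON. Its unstimulated levels were 83.0 and 130.3 CPM at 3 d, against 0.482 and 3.12 CPM at 0 d, which rest on 1 and 11 reads. The difference was -6.12 (SE 1.16, edgeR adjusted p = 0.027). Wnt3a and light at 1 d ON were thus already far above 0 d.

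ENSRNOG00000019120 also had a negative difference, that is, a change under stimulation below the unstimulated one. It stood at 11.6, 269.2 and 131.2 CPM under CHIR99021, Wnt3a and light at 3 d ON, against 61.1, 485.0 and 211.0 CPM at 1 d ON, and each pair was lower at 3 d. The estimate over the inducers was -1.01 and was not called (edgeR adjusted p = 0.67). Without a stimulus it had 374.1 and 444.1 CPM at 3 d, against 3.85 and 6.25 CPM at 0 d, and the difference was -7.46 (SE 1.33, edgeR adjusted p = 0.022). The CHIR99021 library of 3 d was the lowest of the 6 stimulated ones, yet it lay above both 0 d libraries. ENSRNOG00000016538 had 63.1, 6.24 and 3.60 CPM at 3 d ON under these inducers, against 6.11, 2.80 and 3.13 CPM at 1 d ON. The Wnt3a and light values of 1 d rest on 2 and 6 reads and the light value of 3 d on 9. The increase at 3 d lay mainly in the CHIR99021 library, while the unstimulated levels were 2.75 and 3.76 CPM at 3 d, against 52.98 and 31.5 CPM at 0 d. The difference was 5.46 (SE 1.00, edgeR adjusted p = 0.022), and the change between 3 d and 1 d ON by itself, 1.90, was not called (edgeR adjusted p = 0.31).

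None of these 4 genes kept its call without wild-type 0 d, wild-type 3 d or optoWnt 0 d, and without optoWnt 3 d ENSRNOG00000007882 alone was called (edgeR adjusted p from 0.045 to 0.27 over these 4 fits). ENSRNOG00000001785 remained called without any of the 6 stimulated libraries, while ENSRNOG00000016538 lost its call without CHIR99021 3 d, CHIR99021 1 d or Wnt3a 1 d ON (edgeR adjusted p from 0.059 to 0.094). ENSRNOG00000019120 lost it without Wnt3a 1 d or light 3 d ON (0.078 and 0.051), and ENSRNOG00000007882 without CHIR99021 3 d, Wnt3a 1 d or light 1 d ON (0.053, 0.078 and 0.07).

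Most of the 72 calls were lost when any 1 unstimulated library of 0 or 3 d was left out, which leaves 1 library in its group. Leaving out unstimulated wild-type 3 d left 2, wild-type 0 d 3, optoWnt 0 d 5 and optoWnt 3 d 6. Among the stimulated libraries the counts were 48 without CHIR99021 1 d ON and 99 without Wnt3a 3 d ON, and 25, 20, 31 and 41 without CHIR99021 3 d, Wnt3a 1 d, light 1 d and light 3 d ON. In the optoWnt libraries alone, where the unstimulated groups have 1 library each, 0 genes were called (edgeR, smallest adjusted p 0.11).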

How the data were processed

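Libraries of RNA 3′ ends (20 in all) were made with the QuantSeq kit of Lexogen for low input, per the labels' protocols. The values are raw counts, deposited by the authors as whole reads for each of 32623 Ensembl IDs. Bowtie2, Subread, featureCounts and the build Rnor_6.0 are named in the submitters' processing notes, without versions, strand setting or treatment of multiply mapped reads. Reads of near-identical or overlapping genes may thus be assigned wrongly. Each row of the table was tied to its library by the well in that library's labels, and 0 IDs matched a symbol, so the gene lists drawn up by symbol were not run.

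The counts were tested in edgeR 4.0.16 (R 4.3.3, limma 3.58.1) by quasi-likelihood with TMM scaling and filterByExpr, which kept 12190 genes. A single additive model of 8 treatment profiles, genotype and inducer (11 coefficients, 9 residual degrees of freedom, common biological coefficient of variation 0.418) was fitted to all 20 libraries, with Benjamini-Hochberg adjustment in each comparison. CPM values use TMM-scaled totals. The pairing by inducer comes from the labels. Deviations from the group means correlated at 0.34, 0.03 and 0.11 between the 3 d and 1 d libraries of CHIR99021, Wnt3a and light. Between unlike inducers these correlations ran from -0.22 to 0.11, so the Wnt3a and light pairs did not stand out by this measure. No 2 libraries of a group agreed within sampling noise (chi-square per degree of freedom of at least 5.94). Genes were named if called or, for lack of calls, if among the 10 largest uncalled ones with p under 0.01, a mean of at least 10 CPM and a more than 2-fold difference in all 3 pairs, with at most 2 IDs per direction printed. 111 higher and 49 lower genes met the second condition. Other tests, scalings, filters, sample sets and left-out libraries were tried, DESeq2 1.42.0 among them, and the script was tested on simulated data. Comparison, gene sets and tests were chosen with earlier results of these data known.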

Additional observations from a re-analysis of the deposited data

Results flagged for a closer look

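The change between 3 d and 1 d ON and the unstimulated change between 3 d and 0 d differed for 72 genes by a test of the difference itself (edgeR adjusted p under 0.05), which is why this count is listed here. The median change under stimulation was 0.34 in the 31 genes with a positive difference and -0.47 in the 41 with a negative one (log2). The medians without a stimulus were -2.96 and 3.56. No library of unstimulated cells at 1 d was analysed here. In the 4 genes named for this difference, all 3 libraries of 1 d ON already lay outside the range of the 0 d libraries, in the direction of the unstimulated change.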

How the results depend on the processing

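The 3 higher and 0 lower calls at 3 d against 1 d ON were 200 and 62 with DESeq2, 232 and 145 with the first principal component as a covariate, 55 and 15 with no filter on low counts, and 14 and 1 in the 6 libraries alone with inducer as the replicate block (2 residual degrees of freedom). With no replicate block, that is without the inducer term, edgeR called 0 genes. It called 1 higher gene in the 12 stimulated libraries of 1 to 3 d, 1 in the optoWnt libraries alone, and 0 without the CHIR99021, the Wnt3a or the light pair. Leaving out 1 library gave 0 to 0 calls. RLE scaling gave 3 higher calls, upper-quartile scaling 2 and a stricter filter 3. DESeq2 and the component covariate shared 171 higher and 58 lower calls. They called 100 and 97 of the 134 common higher genes and 38 and 52 of the 77 common lower ones. These sets were chosen by the same differences that both fits test, so the counts are no separate support for them. DESeq2 gave an adjusted p for 10299 of the genes. The estimates at 3 d against 1 d ON of the 3 called genes, ENSRNOG00000009350 and ENSRNOG00000000501 changed direction in no alternative run, nor did the difference in change of the 4 genes named for it. RLE scaling gave 147 and 65 common genes.

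The unstimulated calls at 3 d against 0 d, 252, were 631 with DESeq2, 384 with no filter and 17 to 75 with 1 library left out, lowest without wild-type 0 d. Those at 5 d against 0 d, 551, were 1234 with DESeq2 and 32 to 425 with 1 library left out, 32 being the count without wild-type 0 d, and 67 that without wild-type 5 d. At 5 d against 3 d the 0 became 4 with DESeq2 and 2 with no filter, and stayed 0 with 1 library left out. The 72 genes of the difference in change became 250 with DESeq2, 155 with no filter, 275 with the component covariate, 0 in optoWnt libraries alone and 14 without the light pair, and ran from 2 to 99 with 1 library left out. The inducer interaction gave 0 calls in each of the 3 alternatives run. The optoWnt fit, the light pair, the left-out libraries for the 72 genes, all alternatives for the 4 genes named among them, the lists with an unstimulated library left out, and the thinning and RLE scaling of the pairs were added after seeing the data. The cause of these differences was not tested.

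Limits are set by depth and by design. At 1 d, Wnt3a had 696463 reads, so low transcripts there rest on few reads. Each inducer has 1 library per time, and 3 d differs from 1 d in elapsed time as well as in duration of stimulation, which cannot be told apart.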
